A study of Mus musculus with 4 samples.

Results

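The genes for glutamate and GABA receptors in mouse brain were followed across brain regions, towards and into tumour, and between hydrogel-treated and untreated animals. Members were chosen by symbol alone, as every feature with counts that names an AMPA, kainate, NMDA, delta or metabotropic glutamate receptor gene or a GABA-A or GABA-B receptor gene of a fixed list. The rule found 43 genes among 20457 features with counts, and all 43 had counts. The samples were formalin-fixed, paraffin-embedded brain sections from animals that had received a tumour and had it removed, all taken at day 11. Of 4 capture areas, 2 were labelled Vehicle (untreated) and 2 TREAT (given a hydrogel, per the series' design text), and they are called Vehicle 1+4, Vehicle 2+3, TREAT 1+4 and TREAT 2+3 after their titles. The design text gives 4 animals in total, and the labels name no strain, sex, tumour line or hydrogel composition, nor which animal lay in which area. Each capture area held 2 large separate pieces of tissue of 1360 to 1951 spots, and no label says whether areas of a group share an animal. Every n therefore counts areas and not animals, and p-values measure only the spread between these areas, which may be partly technical.

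Glutamate is the main excitatory and GABA the main inhibitory transmitter of the brain. AMPA, kainate and NMDA receptors are tetrameric cation channels, GABA-A receptors are pentameric chloride channels, and the metabotropic glutamate and GABA-B receptors signal through G proteins. Most of these genes are used by neurons, and some, such as Grm3, are also known from glia. Subunit choice sets where on a neuron a receptor sits and how it opens, so brain regions differ in the subunits they make.

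Promoters are shown for 4 members whose levels in the tumour zone differed most in kind. Grik5 and Gabbr1 were 2 of the 3 called members that fell least, Grin1 was among those that fell most, and Grm6 was the 1 member called higher. RefSeq promoter entries (assembly GRCm38.p6) were found for 28 of the 43 members. Each window runs from 250 bases before to 50 bases after a transcript start, 5′ to 3′, and capitals mark GC boxes, searched as GGGCGG on both strands. The windows are chr7:25072320-25072619 on the minus strand for Grik5, chr17:37045716-37046015 on the plus strand for Gabbr1, chr2:25319138-25319437 on the minus strand for Grin1 and chr11:50850435-50850734 on the plus strand for Grm6.
Grik5: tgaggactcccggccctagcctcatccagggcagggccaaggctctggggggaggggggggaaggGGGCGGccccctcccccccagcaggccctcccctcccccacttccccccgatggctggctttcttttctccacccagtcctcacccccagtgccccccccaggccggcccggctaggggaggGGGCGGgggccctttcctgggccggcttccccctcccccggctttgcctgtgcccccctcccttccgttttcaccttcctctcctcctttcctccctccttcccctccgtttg
Gabbr1: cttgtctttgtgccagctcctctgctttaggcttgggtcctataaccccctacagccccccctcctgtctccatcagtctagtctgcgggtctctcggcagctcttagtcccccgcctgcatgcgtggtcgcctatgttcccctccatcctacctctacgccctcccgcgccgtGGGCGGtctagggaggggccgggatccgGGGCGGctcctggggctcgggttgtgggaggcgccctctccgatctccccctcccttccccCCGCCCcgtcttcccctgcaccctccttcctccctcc
Grin1: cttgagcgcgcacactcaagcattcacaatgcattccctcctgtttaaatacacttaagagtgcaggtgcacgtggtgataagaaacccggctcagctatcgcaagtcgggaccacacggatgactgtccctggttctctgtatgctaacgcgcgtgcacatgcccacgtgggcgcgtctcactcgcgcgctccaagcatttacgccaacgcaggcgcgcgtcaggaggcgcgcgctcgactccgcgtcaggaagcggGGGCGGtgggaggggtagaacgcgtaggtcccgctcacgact
Grm6: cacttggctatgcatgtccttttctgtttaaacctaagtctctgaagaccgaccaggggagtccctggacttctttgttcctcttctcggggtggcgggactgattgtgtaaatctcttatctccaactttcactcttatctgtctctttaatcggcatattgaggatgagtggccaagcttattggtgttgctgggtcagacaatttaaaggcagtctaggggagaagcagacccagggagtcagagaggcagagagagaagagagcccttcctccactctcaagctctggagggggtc
The Gabbr1 window held 3 GC boxes and the Grik5 window 2, while Grin1 had 1 and Grm6 had 0. CpG dinucleotides numbered 33 in the Grin1 window, 18 for Gabbr1, 10 for Grik5 and 4 for Grm6, against a median of 7 over all 32851 promoter entries. A GC box was present in 35.7% of all entries and in 18 of the 35 entries of members. The windows are not alike in place. Grik5 begins at 25075694 on the minus strand and Grm6 at 50850369 on the plus strand, so their windows lie inside the gene. The windows of Grin1 and Gabbr1 span the gene's own start. A match describes letters in a window, not a bound site.

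The kept spots over tissue numbered 3012 to 3485 an area, with 33856453 to 55748598 UMIs. A spot held a median of 7327 and 8329 UMIs in the Vehicle areas and of 14909 and 12159 UMIs in the TREAT areas. Receptor genes took from 0.167% of all UMIs in Vehicle 2+3 (Wilson 95% interval 0.165 to 0.168%) to 0.496% in TREAT 1+4 (0.494 to 0.498%), and these intervals cover counting error only. The tumour zone was drawn from proliferation genes and not from receptor genes, and it held 1096, 1724, 371 and 816 spots in Vehicle 1+4, Vehicle 2+3, TREAT 1+4 and TREAT 2+3. Of the 2 clusters that made up most of the zone, cluster 0, named after proliferation genes, had 2269 spots, all in Vehicle areas. Cluster 7 had 0, 2, 191 and 554 spots in the same area order. It was led by Btbd35f1 and Gbp2b and stayed unnamed, as it lacked a marker in the top 10 genes. The other spots of the zone, 13.3, 23.4, 48.5 and 32.1% of it in the same order, lay in clusters that mostly occurred in both groups. The largest of these was an unnamed cluster led by Ccn5, Igkc and Ptx3, with 6.39, 10.1, 39.1 and 20.6% of the zone. All 14 genes of the neuron list and all 10 of the astrocyte list were detected in every area. Levels are CPM, the usual scaling of counts to the total, of UMIs summed over the spots of a region or zone, given as mean ± SD over areas. Because each gene is counted through its own probes, a level is compared between places and never between genes.

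Regions were clusters of spots outside the tumour zone, made without the receptor genes and called after markers among their leading genes. They were cerebral cortex (Lamp5, Tbr1), hippocampus (Fibcd1, Spink8 and C1ql2), striatum (Penk, Adora2a), thalamus (Synpo2, Tnnt1, Prkcd), hypothalamus (Pmch, Hcrt, and a second cluster led by Cyp26b1 and Rxrg), midbrain (Slc6a3, Th), an oligodendrocyte region (Mal, Mobp, with the ependymal genes Ccdc153 and Tmem212), ependyma and choroid plexus (Ttr, Folr1, with Gpr151) and meninges (Ptgds, Slc22a6). A spot holds several cells, so fewer cells of a type and less RNA per cell cannot be told apart. Hypothalamus had only 21 spots in TREAT 2+3. Striatum reached 20 spots only in the 2 TREAT areas and ependyma and choroid plexus only in the 2 Vehicle areas, so those n = 2 values carry 1 group each. All other regions had n = 4. The differences between regions are descriptions without a test. The names meninges and ependyma and choroid plexus are less secure. At a finer clustering (resolution 1.0) the 296 spots of ependyma and choroid plexus gave way to 2 clusters. They were an unnamed cluster of 219 spots led by Gm5741 and Gpr151 and a choroid plexus cluster of 78 spots. No cluster was named meninges at resolution 1.0 or with at least 1000 UMIs a spot. In both, an unnamed cluster led by Lamp5 and Igfn1 had as many markers of another list as the 3 of meninges. Among the named regions, each of 40 members that reached 5 CPM had its highest mean in thalamus (10 members), hippocampus (9), striatum (8), cortex (4), hypothalamus (3), midbrain (2), ependyma and choroid plexus (2), the oligodendrocyte region (1) or meninges (1). For 13 of the 40, every area of that region lay above every area of the named region with the next highest mean. The remaining named regions and the unnamed clusters were not part of that count. For 7 of the 40 (Gria3, Grin2b, Grik1, Gabra2, Gabra3, Gabrb1 and Grm6), an unnamed cluster had a higher mean than any named region. The hypothalamic cluster led by Cyp26b1, of 681 spots, was named from 3 markers. At resolution 1.0 Cyp26b1 led an unnamed cluster of 197 spots, and with at least 1000 UMIs a spot it was among the leading genes of another. Hypothalamus stayed the highest named region for Gabrq, Grin3a and Gabrg1 in both.

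**Figure D1:**
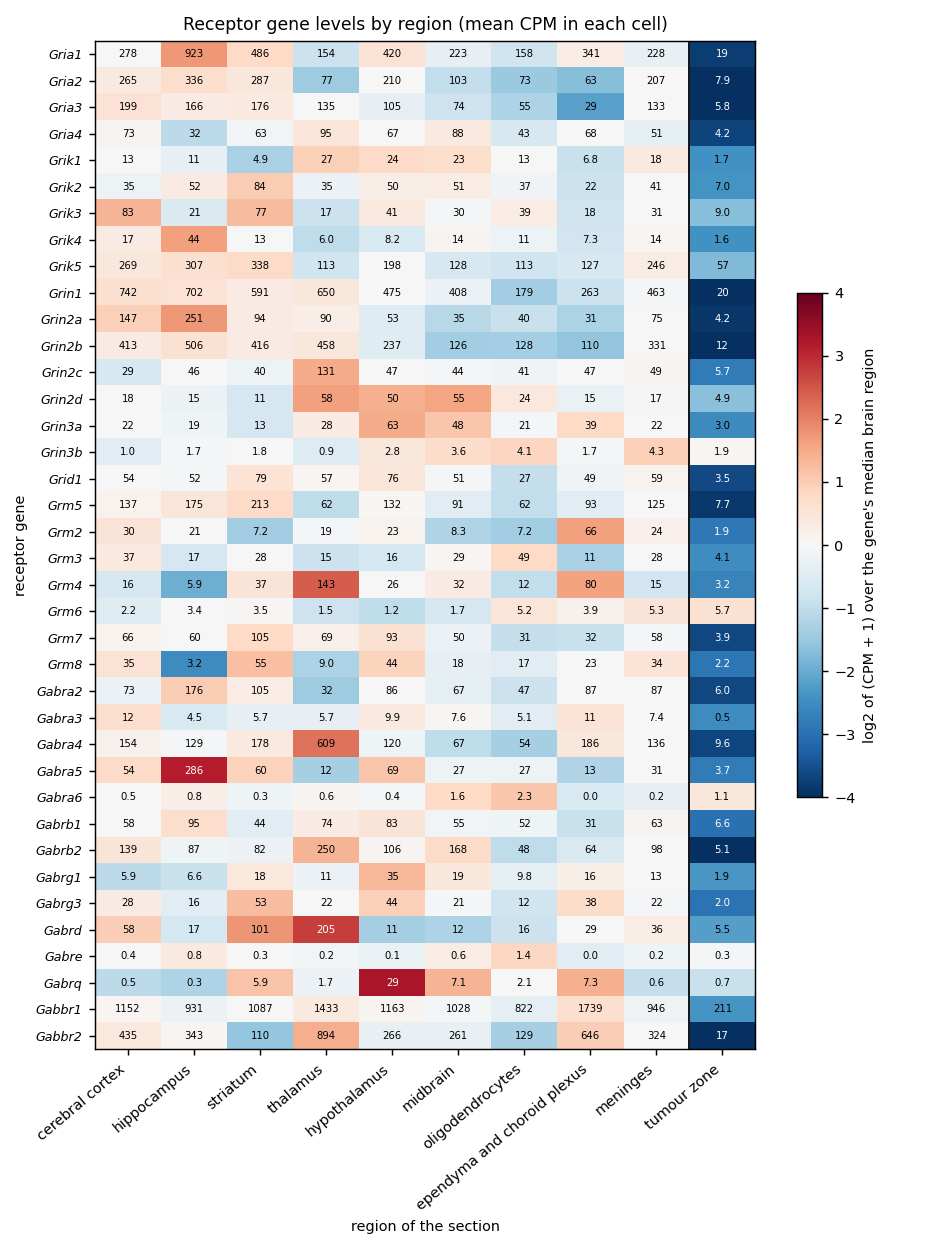
Mean CPM of 38 receptor genes (rows, grouped by receptor family) in 9 brain regions and in the tumour zone (columns), with colour giving log2 of CPM + 1 over the gene's median brain region. Gabra5 stands out in hippocampus at 286 CPM, Gabrd and Grm4 in thalamus at 205 and 143 CPM, and the tumour zone column is the bluest in nearly all rows.

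AMPA receptor subunits carry most fast excitation. Gria1, a subunit tied to synaptic plasticity, was at 936 and 719 CPM in the hippocampus of Vehicle 1+4 and Vehicle 2+3 and at 1022 and 1015 CPM in TREAT 1+4 and TREAT 2+3. Its hippocampal mean of 923 ± 142 CPM was 3.65 times the median of the other regions, and every area lay above the next region, striatum, at 486 ± 7.01 CPM. Gria2, the subunit that limits calcium entry, was also highest in hippocampus, at 336 ± 63.3 CPM, though its areas overlapped those of striatum. Among named regions Gria3 was highest in cortex (199 ± 38.6 CPM) and Gria4 in thalamus (94.5 ± 18.7 CPM), each overlapping the next region. An unnamed cluster led by Lypd1 and Slc30a3 held more Gria3, at 234 ± 30.2 CPM (n = 3).

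NMDA receptors open to glutamate together with membrane depolarisation. Grin1, their obligatory subunit, stood at 742 ± 102 CPM in cortex and 702 ± 118 CPM in hippocampus, which overlapped, and was lowest in the oligodendrocyte region at 179 CPM. Grin2a, the subunit of mature synapses, reached 251 ± 66.3 CPM in hippocampus, above every area of cortex at 147 ± 28.7 CPM, though an area of the Lypd1 cluster (143 ± 23.1 CPM) overlapped it. Grin2c was at 140, 117, 122 and 145 CPM in the thalamus of Vehicle 1+4, Vehicle 2+3, TREAT 1+4 and TREAT 2+3, a mean of 131 ± 13.8 CPM against 49.1 ± 31.4 CPM in the next named region, meninges, with no overlap. An unnamed cluster led by Six3 and Pvalb was at 112 ± 10.9 CPM (n = 4) and overlapped thalamus. Grin2d, a slowly deactivating subunit, stood at 57.9 ± 26.6 CPM in thalamus and 55.4 ± 14.5 CPM in midbrain, which cannot be ordered. The hypothalamic cluster led by Pmch and Hcrt, taken alone, had a higher mean of 81.0 ± 26.8 CPM (n = 3). Thalamus did not stay the highest named region for Grin2d at resolution 1.0 or with at least 1000 UMIs a spot. Grin3a, which lowers calcium flow through the receptor, was highest in hypothalamus at 63.5 ± 27.5 CPM and overlapped midbrain at 48.4 ± 11.6 CPM. Grin2b was highest in hippocampus at 506 ± 73.9 CPM among named regions, overlapped thalamus and was at 506 ± 39.5 CPM in the Lypd1 cluster, and Grin3b stayed between 0.927 and 4.35 CPM in every named region.

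Among kainate receptor subunits, which form channels on both sides of the synapse, Grik4 was the hippocampal one. Its hippocampal level was 43.6 ± 8.89 CPM against 16.8 ± 4.05 CPM in cortex, with every area above. Grik3 was highest in cortex (82.7 ± 9.78 CPM), and striatum followed at 76.9 ± 3.48 CPM within the spread. Grik2 reached 95.3 and 73.0 CPM in the striatum of TREAT 1+4 and TREAT 2+3, above all areas of hippocampus as a whole at 52.2 ± 10.3 CPM. The smaller hippocampal cluster, led by Dsp and C1ql2, was alone at 88.6 ± 4.54 CPM (n = 4), above the striatum of TREAT 2+3. Striatum was thus not set above that part of hippocampus. Grik5, which needs a partner subunit to form a channel, was highest in striatum at 338 ± 48.7 CPM and overlapped hippocampus at 307 ± 49.0 CPM. The delta receptor gene Grid1, of a family that organises synapses, was at 78.5 ± 9.99 CPM in striatum and overlapped the next region.

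The metabotropic glutamate receptors were highest in different regions, and most of them overlapped the next. The presynaptic group III receptor Grm4 was at 143 ± 15.6 CPM in thalamus and at 5.92 CPM in hippocampus, 24.2 times apart, although ependyma and choroid plexus overlapped thalamus at 80.4 ± 75.0 CPM. Grm8, also of group III, was at 60.3 and 49.1 CPM in the striatum of the TREAT areas and at 3.20 CPM in hippocampus, and striatum overlapped hypothalamus at 43.7 ± 8.98 CPM. The group I receptor Grm5 was highest in striatum at 213 ± 5.76 CPM and overlapped hippocampus at 175 ± 72.3 CPM. The presynaptic Grm7 was highest in striatum at 105 ± 13.9 CPM and overlapped hypothalamus at 92.9 ± 21.3 CPM. Of group II, Grm3 was highest in the oligodendrocyte region, at 58.9, 41.8, 46.2 and 47.2 CPM over the 4 areas, all above cortex at 36.7 ± 2.23 CPM, while the Six3 cluster at 34.5 ± 12.4 CPM overlapped it. Grm2 was at 65.9 ± 40.01 CPM in ependyma and choroid plexus, a value with a spread as large as its gap to cortex at 30.01 ± 7.09 CPM. At resolution 1.0 that Grm2 level went with the unnamed Gm5741 cluster (71.5 ± 32.1 CPM, n = 2), so it cannot be tied to choroid plexus. Grm6, known from retinal bipolar cells, never passed 5.25 ± 2.33 CPM in the named regions and was at 6.93 ± 6.40 CPM in the Ccn5 cluster.

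Among GABA-A receptor subunits, hippocampus and thalamus were set apart. Gabra5, the alpha subunit of extrasynaptic receptors in hippocampus, was at 237 and 243 CPM in the hippocampus of Vehicle 1+4 and Vehicle 2+3 and at 324 and 338 CPM in TREAT 1+4 and TREAT 2+3. Its mean of 286 ± 52.9 CPM was 9.76 times the median of the other regions and 23.8 times the thalamic level of 11.98 CPM. Thalamus carried the other extrasynaptic pair, with Gabra4 at 609 ± 114 CPM and Gabrd at 205 ± 61.8 CPM. Gabrd was at 174, 151, 204 and 292 CPM there over the 4 areas, all above striatum at 101 ± 2.24 CPM. Gabrb2 was highest in thalamus too, at 250 ± 45.0 CPM, and overlapped midbrain at 168 ± 90.5 CPM. Among named regions Gabra2 was highest in hippocampus at 176 ± 27.3 CPM, above every area of striatum at 105 ± 17.3 CPM, and it was at 195 ± 55.6 CPM in the Lypd1 cluster (n = 3).

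The rarer GABA-A subunits followed other borders. Gabrq, the theta subunit, was at 8.09, 40.2, 45.9 and 23.3 CPM in the hypothalamus of Vehicle 1+4, Vehicle 2+3, TREAT 1+4 and TREAT 2+3, and its mean of 29.4 ± 17.1 CPM stood 15.5 times above the median of the other regions. Within the hypothalamic clusters, it was at 46.3 ± 31.9 CPM in the cluster led by Pmch and Hcrt and at 16.9 ± 14.8 CPM in the one led by Cyp26b1 (n = 3 each), so its spread was wide in both. Gabrg1 was at 34.7 ± 7.23 CPM in hypothalamus and Gabrg3 at 53.0 ± 1.92 CPM in striatum, each overlapping the next region. Gabra3 was low throughout, with its highest named region cortex at 12.5 ± 2.95 CPM and 19.8 ± 3.28 CPM in the Lypd1 cluster (n = 3). Gabra6, a cerebellar granule cell subunit, and Gabre stayed at or below 2.29 and 1.37 CPM in the named regions, and their highest unnamed clusters were at 3.65 ± 2.34 and 1.45 ± 1.54 CPM.

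Both GABA-B receptor subunits, which work only as a heterodimer, had unlike profiles. Gabbr2 was at 917, 904, 823 and 932 CPM in the thalamus over the 4 areas, a mean of 894 ± 48.5 CPM, above ependyma and choroid plexus at 646 ± 52.6 CPM and at 110 CPM in striatum. Gabbr1 varied least of all members that reached 5 CPM, by 2.12 times from the oligodendrocyte region at 822 CPM to ependyma and choroid plexus at 1739 ± 572 CPM, where its areas (2143 and 1334 CPM) spread too widely to set it above thalamus at 1433 ± 48.3 CPM. At resolution 1.0 that high Gabbr1 level too went with the Gm5741 cluster (1958 ± 882 CPM, n = 2).

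Hippocampal spots fell into 2 clusters, a larger one led by Fibcd1 and Spink8 and a smaller one led by Dsp, C1ql2 and Lct, genes of the dentate gyrus. Grm2 was at 78.0 ± 25.4 CPM in the smaller and at 4.93 ± 3.29 CPM in the larger (n = 4 each). Gabrd was at 46.1 ± 12.4 and 9.69 ± 2.37 CPM in the same order, Gabra4 at 200 ± 63.3 and 111 ± 34.7 CPM, and Grik2 at 88.6 ± 4.54 and 43.6 ± 7.81 CPM. Grik4 ran the other way at 29.7 ± 8.33 and 45.8 ± 10.1 CPM, as did Gabra5 at 217 ± 53.7 and 305 ± 64.7 CPM.

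The share of receptor RNA fell stepwise across the edge of the tumour zone, where a step is 1 spot along the array. Summed over all receptor genes, the level was 4574 to 5939 CPM at 2 to 3 steps outside the edge and 2809 to 5081 CPM in the first spot outside. It was 1178 to 2548 CPM in the first 1 to 2 steps inside, and 277 to 350 CPM at 6 or more steps inside. TREAT 1+4 was lowest of the 4 areas in the first step outside, at 44.4% of its own level 8 to 20 steps out, against 70.9 to 95.4% in the others. The summed level of the neurons list went from 4523 to 8407 CPM in the first step outside to 240 to 287 CPM at 6 or more steps inside. That of the astrocytes list peaked at the edge, with 4460 to 6256 CPM in the first step outside and 2163 to 2593 CPM at 8 to 20 steps.

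**Figure D2:**
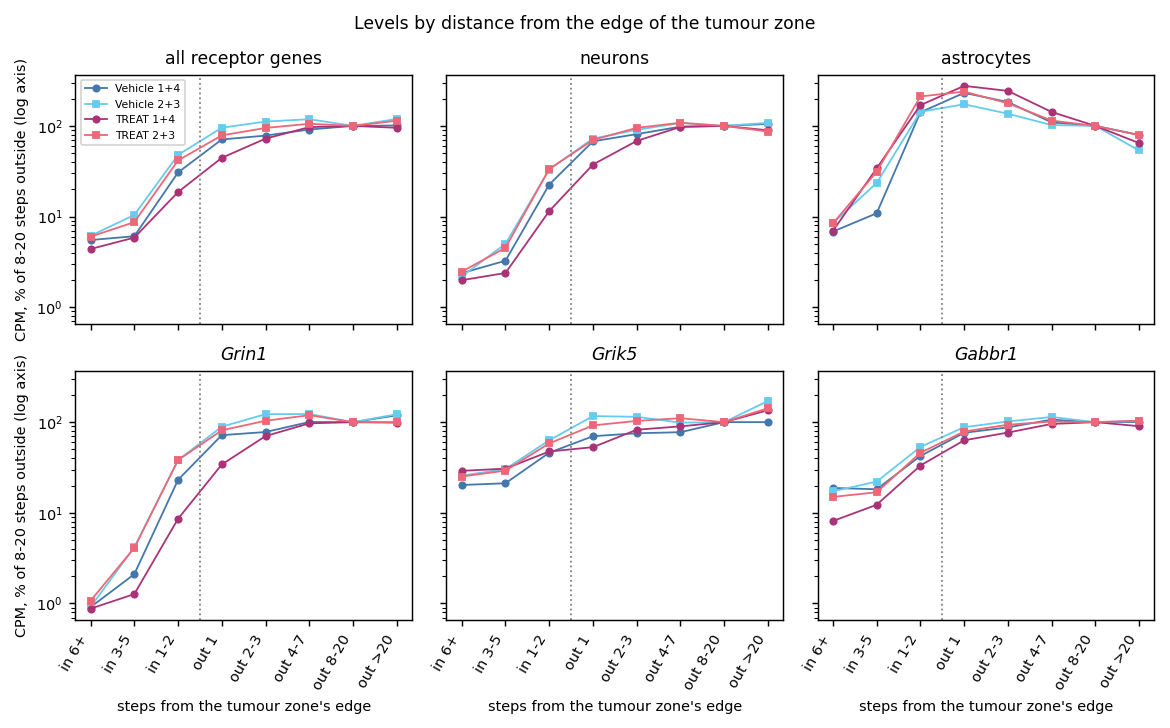
Level at each distance from the edge of the tumour zone (x axis, steps inside and outside; dotted line, the edge), as percent of the same area's CPM at 8 to 20 steps outside on a log axis, for all receptor genes, the neuron and astrocyte lists and 3 members, with 1 line per capture area. At 6 or more steps inside, Grin1 is at 0.877 to 1.07% while Grik5 stays at 20.3 to 29.0% and Gabbr1 at 8.12 to 18.8%.

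In the tumour zone as a whole, the receptor genes as a set were by CPM far below brain at least 8 steps away, called distant brain. CPM is a share of a zone's UMIs, and spots of the 2 zones held unlike totals. The median was 20235, 19475, 30016 and 32541 UMIs a tumour-zone spot in Vehicle 1+4, Vehicle 2+3, TREAT 1+4 and TREAT 2+3. It was 5525, 4159, 14126 and 10472 UMIs a distant spot. A lower share is therefore not a like fall in UMIs per spot, which were not compared between these zones. Of 42 members tested, 39 were lower and 1 was higher in the tumour zone (edgeR's quasi-likelihood test with the capture area as a block, adjusted p under 0.05). Of all 19379 features, 62% were called, 31.1% higher and 30.8% lower. The median log2 change of the members was -3.83, beside 0.07 over all features. All 39 were lower in each of the 4 areas. AMPA receptor subunits (4 of 4 lower, median -4.71), GABA-A beta subunits (3 of 3, -4.67) and GABA-A alpha subunits (5 of 6, -4.54) had the lowest medians. Kainate receptor subunits (5 of 5, -2.90) and group II metabotropic receptors (2 of 2, -3.11) had the highest. The NMDA receptor subunits were lower in 6 of 7, the delta receptors in 2 of 2, group I metabotropic in 2 of 2, group III in 3 of 4, gamma in 3 of 3, the other GABA-A subunits in 2 of 2 tested and GABA-B in 2 of 2.

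Among the lower members with the smallest p were Gria1, Grm5, Gria2, Gabra2 and Grid1. Gria1 was at 14.5, 15.2, 19.7 and 27.7 CPM in the tumour zone of Vehicle 1+4, Vehicle 2+3, TREAT 1+4 and TREAT 2+3 and at 467, 375, 328 and 431 CPM in distant brain, so the zones did not overlap. Its log2 change was -4.52 (SE 0.17, edgeR adjusted p = 1.29e-07). Grm5 stood at 7.74 ± 1.74 CPM in the tumour zone and 139.5 ± 24.1 CPM in distant brain (log2 -4.29, SE 0.17). Gria2, Gabra2 and Grid1 changed by -4.90, -4.35 and -4.20, with edgeR adjusted p from 1.31e-07 to 1.42e-07.

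The members at the ends of the range, picked after their values were seen, showed how unlike the falls in CPM were. Grin1 was at 11.8, 18.6, 18.7 and 29.3 CPM in the tumour zone over the 4 areas against 560, 535, 672 and 512 CPM in distant brain, and fell by 5.03 on the log2 scale (SE 0.23, edgeR adjusted p = 1.58e-07). Grin2b fell by 5.09. At the other end, Grik5 was at 46.2, 52.4, 72.7 and 57.7 CPM against 213, 192, 246 and 221 CPM, a log2 change of -2.05 (SE 0.14, edgeR adjusted p = 1.14e-06). Gabbr1 was at 241, 228, 176 and 198 CPM against 1213, 1136, 1096 and 1076 CPM, a log2 change of -2.54 (SE 0.18, edgeR adjusted p = 1.71e-06). Its partner Gabbr2 fell by 4.83, to 8.11 to 24.0 CPM from 392 to 451 CPM. Grik3 fell by 2.32 and Grin2d by 2.78. Grm6 was at 3.12, 4.12, 8.87 and 6.63 CPM in the tumour zone and at 1.73, 2.16, 3.805 and 2.49 CPM in distant brain. It was higher in 4 of 4 areas, with a log2 change of 1.00 (SE 0.21, edgeR adjusted p = 0.00226), though zone levels overlapped across areas. Gabra6 and Grin3b, which averaged 1.05 and 1.87 CPM in the tumour zone, had log2 changes of -0.11 and -0.01 and were not called, and Gabre was too low to test.

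**Figure D3:**
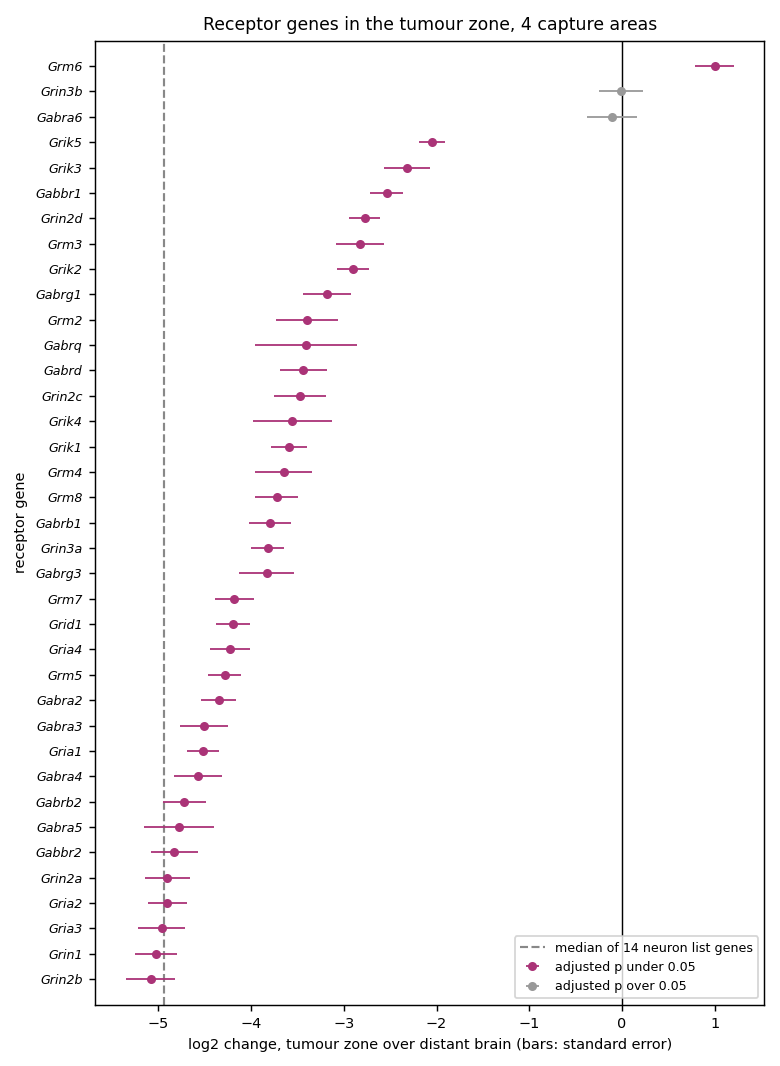
Log2 change of 37 receptor genes between the tumour zone and distant brain (points, with standard errors as bars), over 4 capture areas, and the median of the 14 genes of the neurons list (dashed line, -4.94). Grin1, Grin2b and Gria3 lie at or left of the line, Gabbr1, Grik3 and Grik5 lie far to its right at -2.54, -2.32 and -2.05, and Grm6 lies at 1.00.

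The neurons list moved with these falls in CPM. It stood at 429 to 668 CPM in the tumour zone and 10266 to 12297 CPM in distant brain, and all 14 genes of the list fell, with a median of -4.94 on the log2 scale and Snap25 at -5.36. When receptor genes were scaled to the summed counts of that list in place of TMM, 22 of 42 members were higher and 3 lower in tumour, against 96.8% of all features higher and 0.325% lower. This scaling shifts all genes of a zone alike, and the median of all features went from 0.07 to 4.60. Among the lower were Grin2b (-0.55) and Grin1 (-0.48). On that scale Gria1 was at 0.04 and Gria2 at -0.36, neither called, while Grik5 was at 2.505, Grik3 at 2.23, Gabbr1 at 2.02 and Grin2d at 1.77. Whether the remaining RNA comes from neurons, tumour or other cells was not tested.

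A second measurement came from spots that lie off the tissue. The interior of the tumour zone was taken as 3 or more steps inside its edge, with 964, 1494, 250 and 629 spots in Vehicle 1+4, Vehicle 2+3, TREAT 1+4 and TREAT 2+3. All UMIs together were far more numerous there, at 21127, 22231, 33247 and 34869 per interior spot against 1084, 1474, 1354 and 1455 per off-tissue spot. Per spot, 22 of 43 members (51.2%) were above the off-tissue level in all 4 areas, beside 94.1% of all features. Above it in no area were 5 members (11.6%), among them Grin1, Grin2b, Gria3 and Gabbr2, beside 0.929% of all features. Grin1 was at 0.127, 0.175, 0.244 and 0.359 UMIs per interior spot against 0.195, 0.312, 0.399 and 0.391 off tissue, below it in every area. Gabbr1 was at 4.78, 4.56, 3.92 and 5.77 UMIs per interior spot against 0.614, 0.898, 0.891 and 0.925 off tissue. Grik5 was at 0.918, 1.08, 2.14 and 1.79 against 0.132, 0.178, 0.215 and 0.217, and Grik3 at 0.127 to 0.268 against 0.0229 to 0.0414. Grm6 was at 0.0674 to 0.352 against 0.00336 to 0.0126 UMIs per spot. At 3 or more times the off-tissue level in every area were 9 members (20.9%), namely Gabre, Grm6, Grin3b, Gabra6, Grik5, Grik3, Gabbr1, Gabrd and Grin2d, beside 83.2% of all features.

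As a share of all UMIs the order turned. By CPM, 0 of 43 members were higher in the interior than off tissue in all 4 areas, beside 23.5% of all features, and 39 were higher in none, beside 38.1%. Gabbr1 was at 226, 205, 118 and 165 CPM in the interior and at 567, 609, 658 and 636 CPM off tissue in the same area order. Grik5 was at 43.5 to 64.2 CPM in the interior and 120 to 158 CPM off tissue. Grm6 was higher by CPM in 3 of 4 areas, at 3.19, 4.09, 10.6 and 6.88 CPM against 3.10, 8.57, 6.75 and 3.47 CPM. Where off-tissue UMIs come from was not tested, nor how many of them a spot inside the tumour receives. Against distant brain, the interior gave log2 changes of -6.33 for Grin1, -2.85 for Gabbr1, -2.23 for Grik5 and 1.07 for Grm6.

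**Figure D4:**
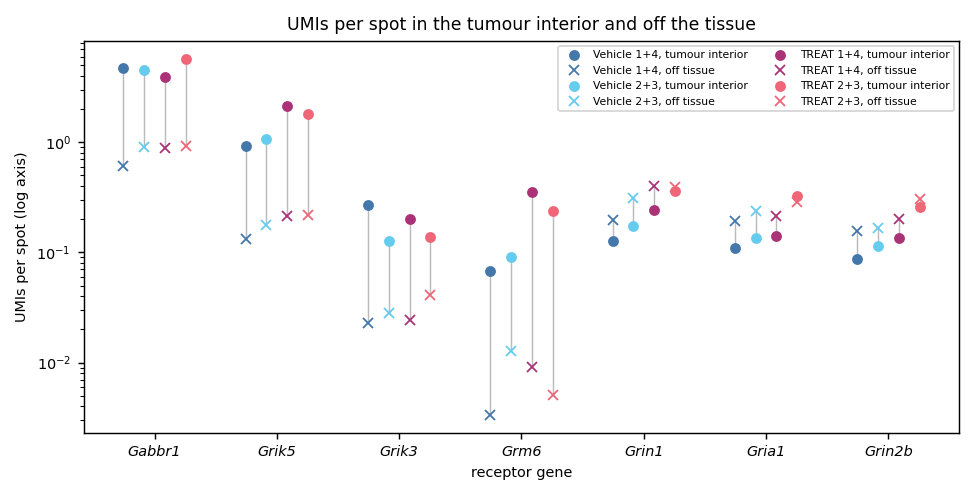
UMIs per spot (log axis) of 7 receptor genes in the interior of the tumour zone (dots) and in spots off the tissue (crosses), joined for each of 4 capture areas. Gabbr1, Grik5, Grik3 and Grm6 have dots above their crosses in every area, while Grin1 and Grin2b have them below.

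Genes that make, load and clear the transmitters were mostly lower in the tumour zone too. Of the list for glutamate synthesis, loading and uptake, 10 of 13 were lower and 2 higher. The vesicular transporter Slc17a7 had 48.6 CPM in tumour against 1631 CPM in distant brain (log2 -5.19), and the astrocyte transporter Slc1a2 was at -4.43, while the glutamine transporters Slc38a1 (0.61) and Slc38a2 (0.73) were higher. Of the GABA synthesis, loading and uptake list, 8 of 9 were lower, among them the uptake transporter Slc6a11 (-4.53) and the GABA-degrading enzymes Abat (-4.21) and Aldh5a1 (-2.87). Glutamate receptor auxiliary and scaffold genes were lower in 25 of 28 and higher in 1, with Shank1 at -4.10 and the postsynaptic scaffold Dlg4 at -3.57. GABA receptor scaffold and auxiliary genes were lower in 11 of 12, among them Lhfpl4 (-3.40) and Shisa7 (-3.51), and Gabarap was higher (0.48). Of all features 30.8% were called lower and 31.1% higher in the same comparison. These lists were chosen with earlier results of the same data known.

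In the margin, 1 to 3 steps outside the tumour zone, the changes of receptor genes were much smaller. Of 40 members tested against brain at least 8 steps away, 3 were lower and 0 higher (edgeR adjusted p under 0.05), and 14 (35%) had an unadjusted p under 0.05, beside 26.5% of all features. DESeq2 called 4 lower and 0 higher, and 9.83% of all features. Of all 14187 features, edgeR called 8.3%, 1.64% lower and 6.65% higher. The members' median log2 change was -0.30, beside -0.01 over all features. Gabra2 was at 90.9, 65.6, 41.3 and 60.8 CPM in the margin of Vehicle 1+4, Vehicle 2+3, TREAT 1+4 and TREAT 2+3 and at 113, 94.9, 92.7 and 132 CPM in distant brain. It was lower in 4 of 4 areas with no overlap (log2 -0.81, SE 0.15, edgeR adjusted p = 0.0243). Grid1 was also lower in 4 of 4 areas (41.7 ± 9.09 against 57.96 ± 5.80 CPM, log2 -0.52, SE 0.09, edgeR adjusted p = 0.0209). Gabrq was at 1.30, 0.386, 3.32 and 0.691 CPM in the margin and at 1.36, 11.2, 17.2 and 4.02 CPM in distant brain, lower in 4 of 4 areas (log2 -2.62, SE 0.45, edgeR adjusted p = 0.0184). The hypothalamus, where Gabrq was highest, made up 1.55 to 35.9% of distant spots and no margin spot, so region and distance cannot be told apart for it. The same holds for Gabra2 and Grid1. The Lypd1 cluster, with the highest Gabra2, made up 0.199 to 47.7% of distant spots and no margin spot. The Ccn5 cluster, low in Gabra2 (36.3 ± 26.5 CPM) and Grid1 (21.9 ± 7.54 CPM), made up 5.28 to 40.8% of margin spots and 0.0431 to 7.38% of distant spots. Leaving out TREAT 1+4 or TREAT 2+3 gave 0 members called lower (0.234 and 0.358% of all features), and leaving out Vehicle 2+3 gave 7 (3.42%). The astrocytes list was at 3844 to 5726 CPM in the margin and 1938 to 2492 CPM in distant brain, with Gfap at a log2 change of 1.89, and the neurons list at 7146 to 9756 against 10266 to 12297 CPM. The part of these cell types in the margin values was not tested.

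Within cortex, the margin could be set against cortex at least 8 steps away in 3 areas, and 0 of 37 members were called in either direction by edgeR, with 10 (27.0%) at an unadjusted p under 0.05 beside 13.9% of all features, and 0 by DESeq2, which called 1.12% of all features. The share called among all 10750 features was 3.29%, with 2.41% higher and 0.884% lower. Grik3 had the smallest p, at 98.5, 147 and 119 CPM in the cortical margin of Vehicle 2+3, TREAT 1+4 and TREAT 2+3 against 86.7, 92.3 and 77.1 CPM in distant cortex (log2 0.58, SE 0.16, edgeR adjusted p = 0.0859). Gabrd was at 25.8, 49.99 and 41.8 CPM against 71.4, 67.7 and 66.4 CPM, a log2 change of -0.70 (SE 0.21, edgeR adjusted p = 0.121). Both kept the same direction in 3 of 3 areas. Grm8 (0.81), Gabra4 (-0.56) and Grm2 (-1.17) came next. The distant cortex of Vehicle 2+3 held only 38 spots. Without that area only TREAT 1+4 and TREAT 2+3 were left, so the result speaks for TREAT alone. There 11 members were called lower and 2 higher, against 5.51 and 8.2% of all features. The cortical margin of TREAT 1+4 held 20 spots, the fewest allowed.

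Between TREAT and Vehicle, whole sections differed both in receptor RNA and in how much tumour zone they held, and the part of the second in the first was not tested beyond the values outside the zone. Of 43 members, 42 had a log2 change above 0 and 2 were called higher (edgeR adjusted p under 0.05), against 1.11% of all 20265 features called higher, 5.67% lower and 6.78% in both directions. Gria3 was at 47.9 and 28.0 CPM in Vehicle 1+4 and Vehicle 2+3 and at 128 and 108 CPM in TREAT 1+4 and TREAT 2+3 (log2 1.29, SE 0.30, edgeR adjusted p = 0.0441). Grm8 was at 7.71 and 4.77 CPM against 24.9 and 17.3 CPM (log2 1.41, SE 0.33, edgeR adjusted p = 0.0457). The striatal cluster, the region with the highest Grm8, held 0 and 0 spots in Vehicle and 203 and 167 in TREAT. Sampled region and treatment thus cannot be told apart for Grm8 here. The members' median log2 change was 0.77 and that of all features 0.13. In tissue outside the tumour zone the members' median was -0.04, 0 members and 0% of all features were called, and Gria3 and Grm8 stood at 0.47 and 0.64. Both calls were lost without Vehicle 1+4, Vehicle 2+3 or TREAT 1+4, when 0 members were called, and without TREAT 2+3 there were 18 (5.96% of all features). With the label numbers as a block 30 members (69.8%) were called higher, against 23.4% of all features. With library totals 15 (34.9%) were, against 14.4%, and the median of all features went from 0.13 to 0.47.

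Inside the tumour zone, 5 members were higher and 1 lower in TREAT (42 tested, edgeR adjusted p under 0.05). That is 11.9% of the members higher and 2.38% lower, 14.3% in all. Of all 19905 features 27.8% were called there, 10.8% higher and 17% lower, so the members' share was near the background for higher calls and under it for lower ones. The zone's make-up differed as well, and the part of this in the values was not tested. Clusters other than 0 and 7 took 13.3 and 23.4% of its spots in Vehicle and 48.5 and 32.1% in TREAT. Among the 4233 features at 2 to 10 CPM, where 25 members lay, 14.9% were called higher and only 1.77% lower. Of those 25 members 4 were called higher and 0 lower, near the shares at that level. Gabbr1 was at 241 and 228 CPM in Vehicle 1+4 and Vehicle 2+3 and at 176 and 198 CPM in TREAT 1+4 and TREAT 2+3, without overlap (log2 -0.75, SE 0.17, edgeR adjusted p = 0.00667). Grin2c was at 2.00 and 3.81 CPM in Vehicle and at 8.41 and 8.59 CPM in TREAT (log2 1.11, SE 0.33, edgeR adjusted p = 0.0243). Grm3 was at 1.91 and 2.59 against 5.79 and 6.22 CPM (log2 0.98, SE 0.32, edgeR adjusted p = 0.0357), again without overlap.

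Gria4 and Grik2 were also called higher. Gria4 was at 1.82 and 2.59 CPM in Vehicle and 7.47 and 4.83 CPM in TREAT (log2 1.02, edgeR adjusted p = 0.0398). Grik2 was at 4.06 and 4.32 against 10.2 and 9.49 CPM (log2 0.80, edgeR adjusted p = 0.0455). Neither overlapped between groups. Groups did not overlap for 33 of the 42 members tested, which was not counted over all features, so this sets no member apart. In the tumour interior the calls of Gria4 (log2 0.77, edgeR adjusted p = 0.147) and Grik2 (0.63, edgeR adjusted p = 0.119) were lost. Those of Gabbr1 (-1.03), Grin2c (1.04) and Grm3 (1.07) were kept there, and Grik3 was called lower (-1.35), from an edgeR adjusted p of 0.0521 in the whole zone. Interior levels of Gria4 were above the off-tissue level in 2 of 4 areas. The astrocytes list was at 373 and 476 CPM in the tumour zone of Vehicle and at 1233 and 769 CPM in TREAT, with 7 of 10 list genes called higher. The oligodendrocytes list was at 1285 and 1708 against 5926 and 3563 CPM, and the part of these cells in the higher members was not tested. The median of all features was 0.11 with TMM and 0.54 with library totals, and with the latter 18 members (42.9%) were higher and 0 lower, against 37.3 and 6.01% of all features, with Gabbr1 at -0.32. Without Vehicle 1+4, 0 members were called in either direction (2.99% of all features), without Vehicle 2+3 there were 3 higher (7.42%) and without TREAT 2+3 there were 2 (6.14%). The difference in how far tumour fell below distant brain was not called for any of 43 members in the interaction test (edgeR, 8 members or 18.6% at an unadjusted p under 0.05 beside 21.4% of all features, 0.09% of all features called, 0.08% higher and 0.01% lower), with the smallest p for Grik4 (2.11, edgeR adjusted p = 0.0767) and Grik3 (-1.15, edgeR adjusted p = 0.0849). DESeq2 called those 2, and 4.57% of all features.

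Of the transmitter and scaffold lists in the tumour zone, GABA synthesis, loading and uptake had 4 of 9 higher in TREAT, among them the GABA-making enzymes Gad2 (log2 1.71) and Gad1 (1.89) and the vesicular transporter Slc32a1 (1.23), all below 20 CPM. Glutamate receptor auxiliary and scaffold genes had 4 of 28 higher, with Cacng5 at 1.34 and Dlg2 at 1.18. Glutamate synthesis, loading and uptake had 2 of 13 higher, with the glutamine synthetase Glul at 0.93, and 2 lower, with Slc38a2 at -0.81. GABA receptor scaffold and auxiliary genes had 2 of 12 higher and 2 lower, with Gabarap at -0.65.

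In the margin, cortex and hippocampus, edgeR called 0 of 38, 0 of 39 and 0 of 37 members between TREAT and Vehicle, and 0.0074%, 0.029% and 0.00788% of all features (in cortex 0.0145% in each direction). At an unadjusted p under 0.05 there were 4, 6 and 7 members (10.5, 15.4 and 18.9%), beside 7.13, 11.9 and 17.3% of all features. DESeq2 called 0, 0 and 1 members and 0.0444, 0.529 and 2.07% of all features. In hippocampus, Grm5 came closest, at 249 and 224 CPM in Vehicle 1+4 and Vehicle 2+3 against 116 and 109 CPM in TREAT 1+4 and TREAT 2+3 (log2 -1.17, SE 0.18, edgeR adjusted p = 0.0587). It was below the threshold in the larger hippocampal cluster alone (-1.17, edgeR adjusted p = 0.0319), with the label numbers as a block and in DESeq2, and the adjusted p ran from 0.000194 to 0.113 over the alternatives. Gabrb1 was at 112 and 121 against 70.8 and 78.0 CPM (log2 -0.75) and Gabra4 at 161 and 153 against 124 and 78.4 CPM (log2 -0.73), neither called. The neurons list was at 12245 and 14730 CPM in the hippocampus of Vehicle and 9843 and 10453 CPM in TREAT. Relative to that list the median of all features went from 0.01 to 0.51, 6 of 37 members (16.2%) were called higher against 13% of all features, and Grm5 was at -0.68 (edgeR adjusted p = 0.0638).

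In cortex, Gabra5 was at 32.7 and 37.9 CPM in Vehicle 1+4 and Vehicle 2+3 and at 68.4 and 77.2 CPM in TREAT 1+4 and TREAT 2+3 (log2 1.02, SE 0.17, edgeR adjusted p = 0.123), and Grm5 at 170 and 149 against 118 and 112 CPM (log2 -0.54, edgeR adjusted p = 0.208). With at least 1000 UMIs a spot the change of Gabra5 was 0.69. In the margin Grm5 again had the smallest p among lower members (log2 -0.92, edgeR adjusted p = 0.68) and Grik3 among higher ones (0.79). Striatum, the next region after cortex for Grik3, made up 3.51 and 14.0% of margin spots in TREAT 1+4 and TREAT 2+3 and no Vehicle margin spot. The difference between margin and distant brain was not called between TREAT and Vehicle for any of 41 members by edgeR or DESeq2 (0% of all features called by either, 1 member or 2.44% at an unadjusted p under 0.05 beside 3.8% of all features, Gabra2 at -0.70).

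**Figure D5:**
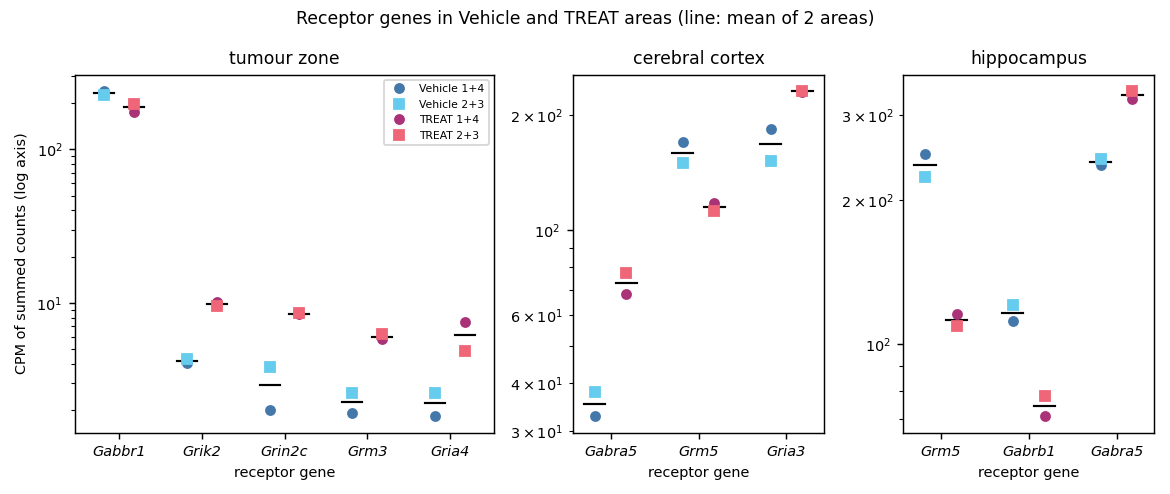
CPM of receptor genes (log axis) in the tumour zone, cerebral cortex and hippocampus, with 1 point per capture area and a line at the mean of each group of 2. In the tumour zone Gabbr1 is lower and the 4 other genes shown are higher in TREAT, and in hippocampus Grm5 lies at 224 and 249 CPM in Vehicle and at 109 and 116 CPM in TREAT.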

How the data were processed

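Sections were assayed by probe pairs hybridized to transcripts, which were ligated and captured on barcoded array positions, as the labels' protocols state. The authors deposited raw UMI counts per feature and spot, on and off tissue, made with Space Ranger 2.1.1 on mm10 (R 4.4.1 and Seurat are also named), per the submitters' processing notes. A barcode is an array position, so areas share barcodes by design.

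Of 32589 features, 304 with deprecated identifiers were left out. Tissue spots with at least 500 UMIs were kept. Counts of a proliferation list, pooled over each spot and its neighbours, were split by Otsu's method at 9.02 on the log2(CPM + 1) scale, and 631 of 13003 spots lay within 0.5 of it. Pieces under 10 spots were dropped. Spots were clustered without the 43 members (scanpy 1.11.5, leidenalg 0.10.2, resolution 0.6), and a cluster was named from at least 3 markers among its 50 leading genes with at least 1 in the top 10. Spots often hold several cells, so doublets were not called.

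Counts were summed per area and zone (at least 20 spots) and tested with edgeR 4.0.16 (quasi-likelihood, TMM, filterByExpr, Benjamini-Hochberg over all features, threshold 0.05). Alternatives are DESeq2 1.42.0, other scalings, filters, zones and clusterings, and each area left out. The fits were tested on simulated data. Of each comparison, up to 6 called members per direction with the smallest p are given, or 3 as values where none was called, and up to 4 a region and pathway list. Some genes are counted but not reported here by name. Members and lists were chosen with earlier results of these data known.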

Additional observations from a re-analysis of the deposited data

How the results depend on the processing

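Tumour against distant brain kept its counts of calls under every alternative run except scaling to neuronal RNA. There 22 members were higher and 3 lower, against 96.8 and 0.325% of all features. The members' median log2 change became 0.69, beside 4.60 over all features. Among the members that turned positive and were called were Grik5 (2.505), Grik3 (2.23), Gabbr1 (2.02), Grin2d (1.77), Grm3 (1.71) and Grik2 (1.64). Grid1 (0.34), Grm5 (0.26), Gabra2 (0.19) and Gria1 (0.035) also turned positive but were not called. That scaling gave 2 higher and 1 lower in the margin, 1 higher in the cortical margin, 6 higher in hippocampus, 0 higher in whole tissue and 0 lower between TREAT and Vehicle in the tumour zone.

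For TREAT against Vehicle, whole-tissue calls were 12 with DESeq2 (4.46% of all features), 15 with library totals, 30 with the replicate block, 0 outside the tumour zone and 0 to 18 with 1 area left out. In the tumour zone, higher calls were 1 with DESeq2, 18 with library totals, 10 with the replicate block, 3 or 2 with the tumour cut 0.5 lower or higher, 3 in the interior and 0 to 7 with 1 area left out. Lower calls there were 2 with DESeq2, the block, no filter, the higher cut or the interior, 0 with library totals and 0 to 2 with 1 area left out. Left-out areas gave 0 to 2 higher and 0 to 4 lower in the margin, 0 to 1 higher in cortex, and 0 to 1 in each direction in hippocampus. Cortex had 1 higher and 1 lower with the block and 1 higher with no filter. Hippocampus had 1 lower (Grm5) with DESeq2, the block, 1000 UMIs, resolution 1.0 or the larger cluster alone, and 3 with no filter. Margin against distant brain had 1 lower with the lower cut and 0 to 7 with 1 area left out. Cortical margin had 7 lower with the lower cut, 1 higher and 3 lower with no filter, and 0 to 2 higher and 0 to 11 lower with 1 area left out. The 11 lower came from the fit that had only TREAT areas left. DESeq2 called 1 higher (Grik4) and 1 lower (Grik3) in the tumour interaction. The share of all features called moved with the setting too. In whole tissue it was 1.11% higher in the main fit, 14.4% with library totals and 23.4% with the replicate block. In the tumour zone it was 10.8% higher in the main fit and 37.3% with library totals. Counts given here without such a share describe the setting and are no result about receptor genes. The cause of each change was not tested.

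Equal numbers in the labels are not stated to mark a shared animal, so the block is given only as an alternative. The interior, the tissue outside the tumour zone and the larger hippocampal cluster were added after seeing the data. Members under about 5 CPM rest on few UMIs, and 2 areas a group limit every comparison of TREAT with Vehicle.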
